A study of Mus musculus with 7 samples.

Results

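The genes described here are 7 genes of a 297-gene in situ panel that are commonly used to mark astrocytes: Aqp4, Slc39a12, Gfap, Acsbg1, Gli3, Rfx4 and Id2. They were chosen by name, and their levels and co-variation were followed in astrocytes, in cells with the cilium gene Spag16 and in neurons, section by section. The data are Xenium in situ transcript counts, a method that images and decodes single RNA molecules of a fixed panel and assigns them to segmented cells. The tissue was brain hemispheres of wild-type mice, fresh-frozen and cut into 7 coronal hemisections of 10 µm that pass through the anterior thalamic nuclei. There were 2 anterior sections (bregma -0.58 mm), 2 intermediate sections (bregma -0.70 to -0.82 mm) and 3 posterior sections (bregma -0.94 mm), all WT and with no treatment named, and the sources used here give no age for the animals. Replicates 1 and 2 shared a slide. Posterior replicates 3 and 4 lay on the other slide, which held no anterior or intermediate section. The labels do not say whether replicates are separate animals, so a p-value here measures how these sections vary, and part of that may be technical.

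Astrocytes are the glial cells that buffer ions and water, take up transmitter and wrap blood vessels with their endfeet. Aqp4 encodes the water channel of those endfeet, and Slc39a12 encodes a zinc importer. Gfap encodes the intermediate filament protein by which fibrous and reactive astrocytes are often recognised, and Acsbg1 an acyl-CoA synthetase that activates long-chain fatty acids. Gli3 (a factor of the Hedgehog pathway), Rfx4 (an RFX-family factor) and Id2 (an inhibitor of basic helix-loop-helix factors) are transcription regulators. Id2 is also well known in some neurons of the forebrain. Ependymal cells are the ciliated cells that line the ventricles, and Spag16 encodes a protein of the motile cilium.

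The promoters of Slc39a12 and Acsbg1 are shown because, of the 7 genes, Slc39a12 alone was higher and Acsbg1 fell most in Spag16-positive cells against astrocytes, as described below. Gli3 is shown beside them as the transcription regulator with the most CG pairs. Each is the 250 bases before the annotated start, on the gene's strand, from RefSeq (GRCm38.p6). They lie at chr2:14388148-14388397 on the plus strand for Slc39a12, chr9:54661886-54662135 on the minus strand for Acsbg1 and chr13:15463473-15463722 on the plus strand for Gli3. Capitals mark the letters CG, the pair that DNA methylation acts on in mammals, which reads the same on both strands.
Slc39a12: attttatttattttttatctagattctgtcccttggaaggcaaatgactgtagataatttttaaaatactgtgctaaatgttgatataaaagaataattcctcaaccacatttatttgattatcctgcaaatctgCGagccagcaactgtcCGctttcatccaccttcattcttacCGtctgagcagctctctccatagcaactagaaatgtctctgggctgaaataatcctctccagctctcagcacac
Acsbg1: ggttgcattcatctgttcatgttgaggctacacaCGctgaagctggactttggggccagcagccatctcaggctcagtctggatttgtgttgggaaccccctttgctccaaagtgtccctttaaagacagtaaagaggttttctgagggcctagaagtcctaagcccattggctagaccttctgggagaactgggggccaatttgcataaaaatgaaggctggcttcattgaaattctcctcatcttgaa
Gli3: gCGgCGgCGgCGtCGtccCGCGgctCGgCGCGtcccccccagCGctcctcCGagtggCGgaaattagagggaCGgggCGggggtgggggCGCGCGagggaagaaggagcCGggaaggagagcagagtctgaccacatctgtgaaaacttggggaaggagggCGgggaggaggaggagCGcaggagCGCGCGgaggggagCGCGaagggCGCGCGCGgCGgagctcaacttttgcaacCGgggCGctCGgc
The windows hold 3 CG pairs for Slc39a12, 1 for Acsbg1 and 34 for Gli3, against a median of 6 over 32851 promoter windows of this length, of which 92.1% held at least 1. The Gfap window holds 2, that of Id2 18, and the windows of 2 annotated Rfx4 starts 15 and 2. These counts describe the letters, and no methylation was measured.

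Cells were sorted by simple count gates, because no cell annotation was used. The astrocyte gate took cells with at least 3 transcripts of Aqp4 or of Slc39a12. Taken alone it held 144254 of the 382707 cells with at least 10 transcripts (37.7%). Of the 139388 of these outside the Spag16 gate, 98222 (70.5%) also passed the neuron gate, which was at least 5 transcripts of Slc17a6, Slc17a7, Gad1 or Gad2. Segmented outlines in packed tissue can hold transcripts of neighbouring cells, so cells that passed the neuron gate were left out, which left 41166 astrocyte-gate cells. These made up 10.8% ± 0.402 of the cells of a section (SD, n = 7 sections) and held a median of 231 transcripts. A second gate used none of the 7 genes: at least 3 transcripts of Ntsr2, a neurotensin receptor gene of astrocytes, which gave 32575 cells. Of these, 73.5% also lay in the astrocyte gate. The Spag16 gate (at least 5 transcripts) held 5268 cells and the neurons 155059. Of the astrocyte-gate cells, 65.5% also passed a gate for oligodendrocytes, their precursors, microglia, endothelial, mural or fibroblast cells, so the classes are enriched rather than pure.

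Section totals ran from 17438577 to 23432215 transcripts, with medians of 278 to 390 per cell. Control probes, which match no transcript, gave 0.379 to 0.870 counts per cell by section. They differed by class, with 1.11 in Ntsr2-gate cells, 0.979 in astrocyte-gate cells, 0.481 in Spag16-gate cells and 0.422 in neurons, summed over all control probes. Levels below are transcripts per 1000 panel transcripts or per cell. Probe sets differ between genes, so levels of different genes were not compared. Only 8 cell barcodes occurred in more than 1 section.

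The first comparison asked how far the 7 genes stood above neurons in cells chosen without them, with 160151 neurons that had fewer than 3 Ntsr2 transcripts. All 7 rose in Ntsr2-gate cells (edgeR quasi-likelihood test, Benjamini-Hochberg adjusted over the panel). Of the 297 panel genes 96.3% were called in this comparison, 44.4% higher and 51.9% lower. Markers of other cell types differed between the classes as well, and their part in these differences was not tested. The sum of 7 endothelial genes had a median of 34.6 per 1000 in Ntsr2-gate cells and 8.84 in neurons. That of 4 fibroblast genes (Dcn, Col1a1, Igf2 and Aldh1a2) had 13.3 in Ntsr2-gate cells and 1.16 in neurons. The sum of 4 mural genes had 5.76 in Ntsr2-gate cells and 1.06 in neurons, and Opalin, a gene of myelinating oligodendrocytes, 10.5 in Ntsr2-gate cells and 2.22 in neurons. Aqp4 had 21.0, 22.2 and 23.7 transcripts per 1000 (lowest, median and highest section) in Ntsr2-gate cells, against 2.05, 2.40 and 2.45 in neurons. This was 9.66-fold, a log2 difference of 3.27 ± 0.04 (SE, n = 7 sections; adjusted p = 4.7e-15). Slc39a12 had between 17.6 and 19.8 over the sections of Ntsr2-gate cells, against 2.13 to 2.28 in neurons, a log2 difference of 3.12 ± 0.04. The water channel and the zinc importer thus differed by similar amounts, and their section ranges did not overlap between the classes.

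Gfap had 13.9, 18.4 and 23.9 transcripts per 1000 in Ntsr2-gate cells, against 1.61, 1.86 and 2.08 in neurons, a log2 difference of 3.29 ± 0.10. It had the widest SE of the 7. Acsbg1 had 25.4, 30.3 and 32.2 in Ntsr2-gate cells, against 4.90, 5.69 and 5.88 in neurons, a log2 difference of 2.42 ± 0.03. Among the transcription regulators, Rfx4 had 7.87, 8.27 and 8.66 in Ntsr2-gate cells, against 0.939, 1.01 and 1.11 in neurons, a log2 difference of 3.06 ± 0.03. Gli3 had 3.65, 3.88 and 4.33 in Ntsr2-gate cells, against 0.563, 0.630 and 0.697 in neurons, a log2 difference of 2.68 ± 0.04. Id2 had the smallest difference, with 20.5, 23.7 and 25.8 in Ntsr2-gate cells, against 6.84, 7.68 and 8.39 in neurons (log2 difference 1.65 ± 0.04). Each of the 7 genes was higher in 7 of 7 sections, and the adjusted p was at most 9.5e-12.

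The median log2 difference of the 7 genes was 3.06, against -0.13 over all 297 panel genes, of which 286 were called in either direction. Of 4 panel genes listed as other astrocyte genes, Ntsr2 defined the gate and the other 3 rose: Cdh20 (a cadherin gene) by 1.87 ± 0.03, Clmn (calmin) by 1.60 ± 0.03 and Rmst (a long non-coding RNA) by 1.36 ± 0.04 on the log2 scale. Clmn and Rmst were not particular to these cells. Clmn had 28.7 to 32.5 per 1000 in oligodendrocyte-gate cells, against 11.8 to 15.0 in Ntsr2-gate cells. Rmst had 11.9 to 17.2 in Slc17a6 neurons (described below), against 11.2 to 14.7 in Ntsr2-gate cells. In astrocyte-gate cells against neurons outside that gate, the 5 genes that the gate did not use were again all called higher, where 93.9% of the panel was called, 42.1% higher and 51.9% lower. Their log2 differences were 3.38 ± 0.10 for Gfap, 2.94 ± 0.04 for Rfx4, 2.42 ± 0.05 for Gli3, 2.16 ± 0.04 for Acsbg1 and 1.53 ± 0.04 for Id2. Aqp4 had a median of 23.6 transcripts per 1000 in astrocyte-gate cells and 1.36 in neurons, and Slc39a12 had 21.2 in astrocyte-gate cells and 1.33 in neurons, which the gate itself set. Scaling by cell number in place of library size lowered the log2 differences of Ntsr2-gate cells by a median of 0.83, and the share of calls that were higher was then 31.6%, against 46.2%. In the astrocyte-gate comparison the shift was -0.74 and that share 32.6%, against 44.8%.

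**Figure D1:**
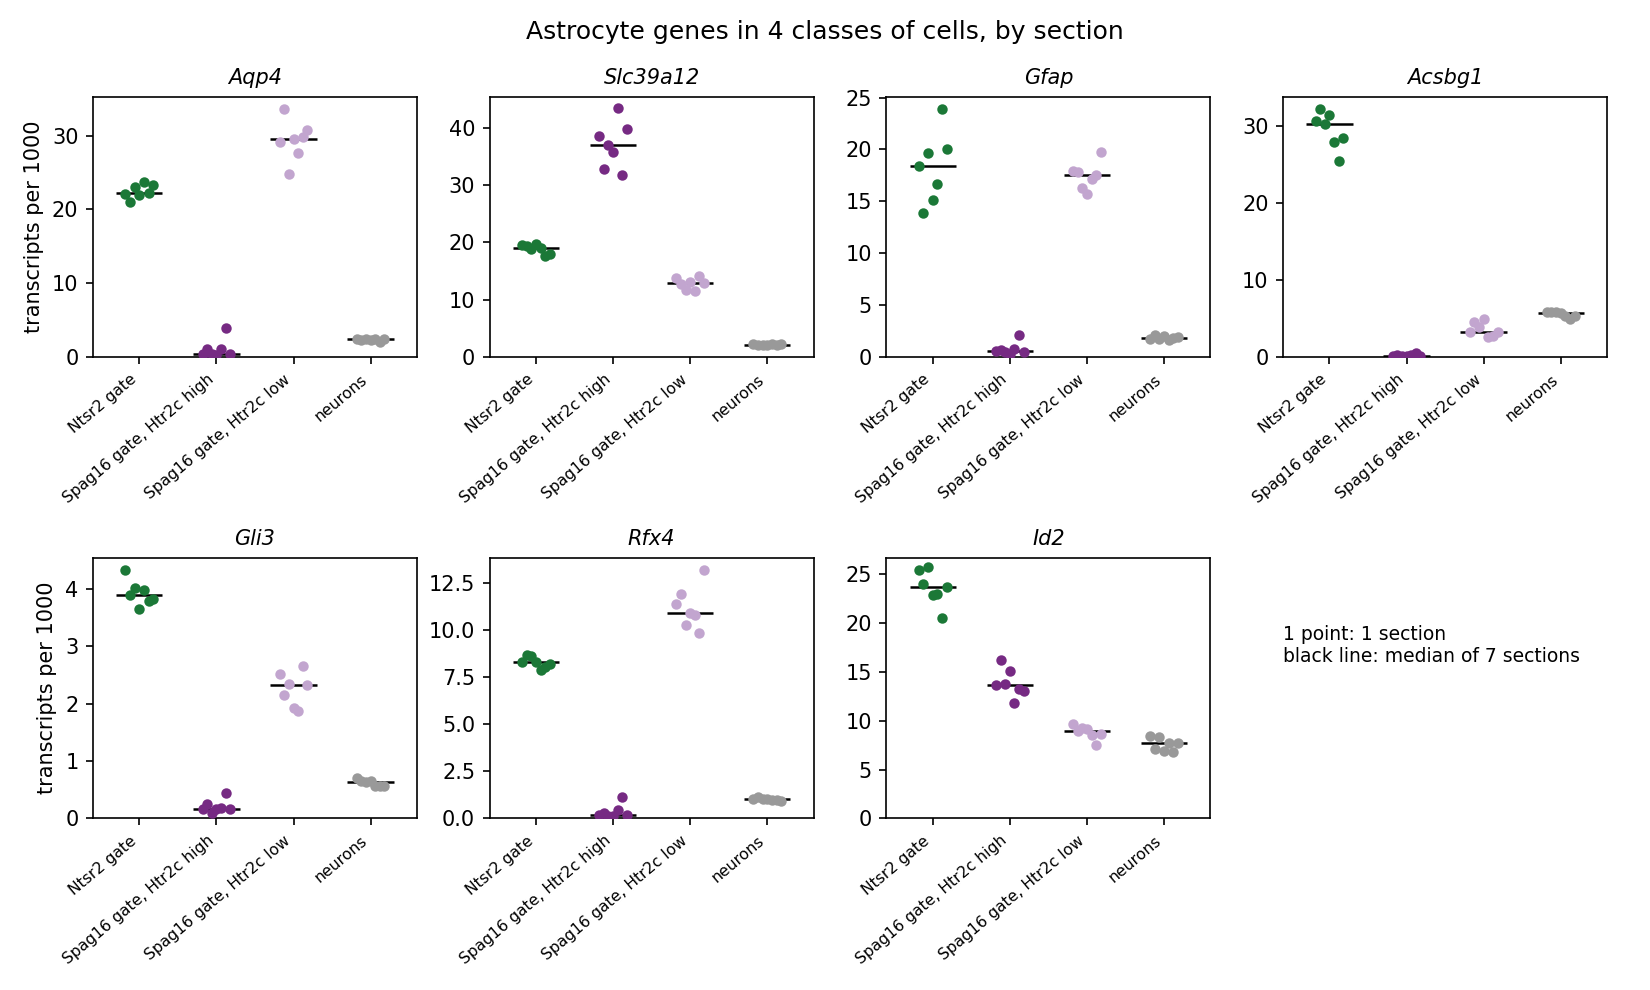
Transcripts per 1000 panel transcripts of each gene in 4 classes, with 1 point per section (n = 7) and a line at the median. All 7 genes lie above neurons in Ntsr2-gate cells. In Spag16-gate cells with high Htr2c the medians of Slc39a12 and Id2 lie above those of neurons and the other 5 medians below, with 1 section of Aqp4 at 3.88.

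At the edge of the astrocyte gate the levels of the other genes changed gradually. Cells just inside it, whose higher count of Aqp4 and Slc39a12 was 3, had 3.22 Acsbg1, 3.08 Gfap, 2.42 Id2, 0.743 Rfx4 and 0.368 Gli3 transcripts per cell. Cells just outside, with a count of 2, had 2.35 Acsbg1, 2.55 Gfap, 1.77 Id2, 0.526 Rfx4 and 0.284 Gli3. The 9048 cells just inside had a median of 189 transcripts and the 14515 cells just outside a median of 173.

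The second comparison set Spag16-gate cells against Ntsr2-gate cells. Spag16 was the only measured gene of the fixed ependymal list, so the gate rests on 1 gene, and the cells proved to be of more than 1 kind. Of 5268 cells, 2079 (39.5%) had at least 10 transcripts of Htr2c, a serotonin receptor gene, 2780 (52.8%) had fewer than 3, and 409 lay between. Htr2c is well known from the epithelium of the choroid plexus, the tissue that secretes cerebrospinal fluid. This division was chosen after the data were seen, so it is described with no test.

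In Htr2c-high Spag16-gate cells, 5 of the 7 genes were low. Aqp4 had 0.424 ± 0.452 transcripts per cell in Htr2c-high cells and 6.83 ± 0.475 in Htr2c-low cells (SD, n = 7 sections each). Gfap had 0.136, 0.213 and 0.788 (lowest, median and highest section) in Htr2c-high cells, against 3.66, 3.94 and 4.63 in Htr2c-low cells. Rfx4 had 0.137 ± 0.133 in Htr2c-high cells and 2.62 ± 0.319 in Htr2c-low cells. Acsbg1 and Gli3 were lower too, with 0.0866 ± 0.0507 and 0.0807 ± 0.0378 in Htr2c-high cells, against 0.849 ± 0.248 and 0.526 ± 0.0694 in Htr2c-low cells. At least 6 different control probes were in use, so a single one gave on average at most 0.0577 counts per Htr2c-high cell, close under the levels of Acsbg1 and Gli3 there.

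The other two genes ran the opposite way. Slc39a12 had 11.5, 15.4 and 18.2 transcripts per cell in Htr2c-high cells (lowest, median and highest section), against 2.68, 3.02 and 3.24 in Htr2c-low cells. Id2 had 4.82, 5.24 and 6.56 in Htr2c-high cells, against 1.57, 2.02 and 2.54 in Htr2c-low cells. Per 1000 transcripts, which allows for the larger totals of Htr2c-high cells (median 391, against 205), the ratios were 2.88 for Slc39a12 and 1.57 for Id2. For all 7 genes the section ranges per 1000 did not overlap between the 2 kinds of cells, which is again a description of a division made on these cells. The 409 cells between had 5.85 Aqp4 and 5.17 Slc39a12 transcripts per cell.

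The 2 kinds differed in other genes of the panel as well. Igf2, which encodes an insulin-like growth factor, had 37.3 ± 6.36 transcripts per cell in Htr2c-high cells and 1.79 ± 0.786 in Htr2c-low cells. Cd24a and Trp73, which are known in ciliated ependymal cells, had 2.26 ± 0.711 and 0.876 ± 0.147 in Htr2c-high cells, against 12.5 ± 1.05 and 1.52 ± 0.129 in Htr2c-low cells. Spag16 itself had 6.89 ± 0.166 in Htr2c-high cells and 8.34 ± 0.164 in Htr2c-low cells. In posterior replicate 3, which had the fewest Spag16-gate cells (481), Htr2c-high cells held 1.41 Aqp4 transcripts per cell, against 0.126 to 0.440 in the other 6 sections.

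**Figure D2:**
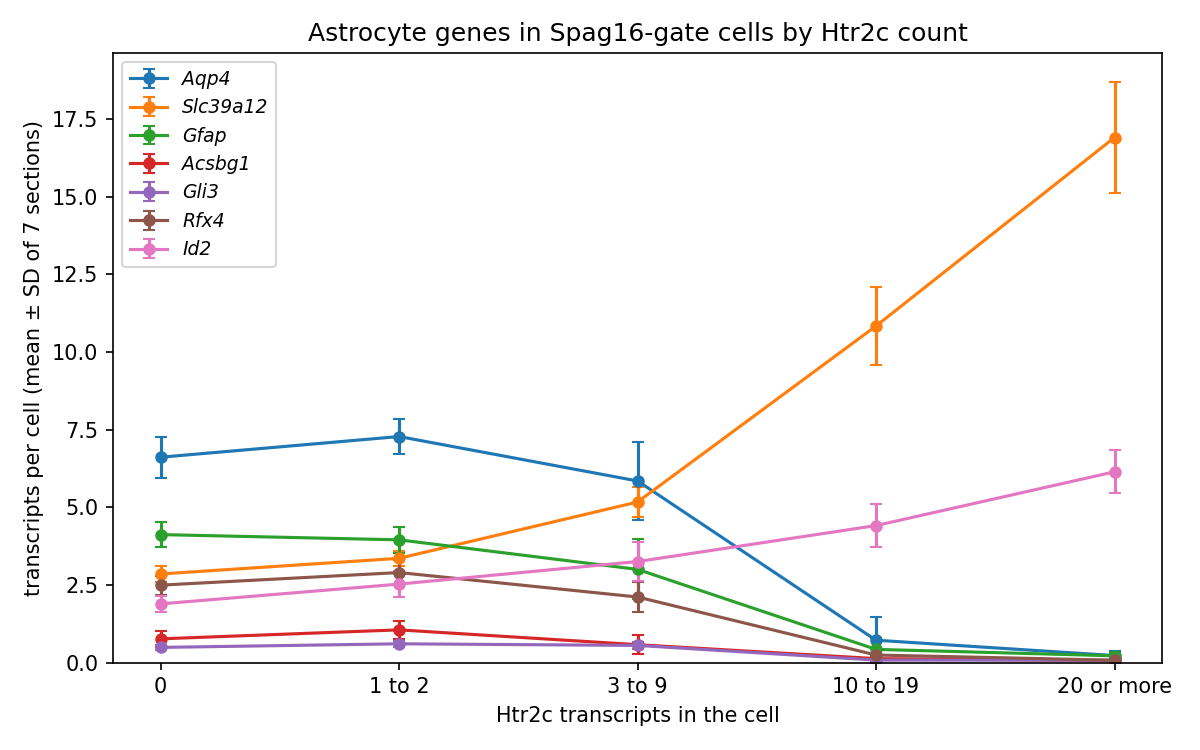
Mean transcripts per cell (± SD of 7 sections) of each gene in Spag16-gate cells, by the number of Htr2c transcripts in the cell. Aqp4, Gfap and Rfx4 drop between the bins 3 to 9 and 10 to 19, where Slc39a12 and Id2 are higher.

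Cells with high Htr2c and fewer than 5 Spag16 transcripts were also found in the astrocyte gate. Of 41166 astrocyte-gate cells, 2786 (6.77%) had at least 10 Htr2c transcripts, with 4.08% to 9.09% by section. These held 10.5 ± 1.39 Slc39a12 transcripts per cell but only 0.178 ± 0.0763 Aqp4 and 0.219 ± 0.112 Gfap. Astrocyte-gate cells with fewer Htr2c transcripts held 4.83 ± 0.380 Slc39a12, 6.18 ± 0.450 Aqp4 and 5.29 ± 0.872 Gfap.

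Over the whole Spag16 gate, 1 of the 7 genes was called higher and 4 lower than in Ntsr2-gate cells, where 87.2% of the panel was called, 39.1% higher and 48.1% lower. Slc39a12 was higher by 1.03 ± 0.11 (log2, edgeR adjusted p = 2.8e-06). Per 1000 transcripts, without TMM scaling, the ratio of its section means was smaller, at 1.37. An alternative without Htr2c-high cells was chosen after the data were seen and is given here by its values alone. It kept Spag16-gate cells with fewer than 3 Htr2c transcripts, so the 409 cells between were left out too. In the Ntsr2 and astrocyte gates it kept cells with fewer than 10. The log2 difference of Slc39a12 was then -0.35, so its direction rested on the cells left out. For the Spag16 gate, values without Htr2c-high cells have this meaning throughout. Acsbg1 fell by 3.53 ± 0.16 on the log2 scale, with 1.06, 1.51 and 2.98 transcripts per 1000 in Spag16-gate cells against 25.4, 30.3 and 32.2 in Ntsr2-gate cells. Without the Htr2c-high cells the log2 difference was -2.86. Acsbg1 was thus low in both kinds of Spag16-gate cells.

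Gli3 fell by 1.17 ± 0.11 on the log2 scale and Id2 by 0.45 ± 0.07, and without Htr2c-high cells the log2 differences were -0.60 and -1.22. Gfap fell by 0.53 ± 0.13 (edgeR adjusted p = 0.0026), and without Htr2c-high cells the difference was 0.16. Per 1000 transcripts Gfap had 15.7 to 19.8 in Htr2c-low Spag16-gate cells, within the 13.9 to 23.9 of all Ntsr2-gate cells. Aqp4 (-0.09 ± 0.13, adjusted p = 0.53) and Rfx4 (-0.05 ± 0.09, adjusted p = 0.58) did not pass the test over the whole gate. Without Htr2c-high cells the log2 difference was 0.59 for Aqp4 and 0.63 for Rfx4. With library size in place of TMM scaling, which shifted all genes by a median of -0.60, Aqp4 and Rfx4 over the whole gate were lower by 0.68 and 0.65 on the log2 scale and passed the test. The share of calls that were higher was then 32.2%, against 44.8% in TMM scaling. Per 1000 transcripts Aqp4 had 10.5, 12.1 and 20.9 in Spag16-gate cells, against 21.0, 22.2 and 23.7 in Ntsr2-gate cells, and was lower in 7 of 7 sections. Without TMM scaling the ratios of section means per 1000 were 0.299 for Gli3, 0.483 for Id2 and 0.461 for Gfap.

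Among the genes listed as other astrocyte genes, Cdh20 fell by 3.52 ± 0.15 in Spag16-gate cells, while Rmst and Clmn rose by 1.28 ± 0.09 and 1.23 ± 0.09 on the log2 scale. Against the astrocyte gate in place of the Ntsr2 gate, 4 of 5 testable genes were called lower, where 89.2% of the panel was called, 49.8% lower and 39.4% higher. They were Acsbg1 (-3.35 ± 0.13), Gli3 (-1.02 ± 0.10), Gfap (-0.73 ± 0.13) and Id2 (-0.43 ± 0.05), and Rfx4 did not pass (-0.01 ± 0.08, adjusted p = 0.94). Without Htr2c-high cells the log2 difference was 0.10 for Gfap and 0.83 for Rfx4. With library size the shift of all genes was -0.53 and 31.7% of calls were higher, against 44.2%.

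Co-variation was measured as the Pearson correlation across cells within a section, on the log of counts scaled to 300 transcripts, averaged over 7 sections. It is a description, since the cells share a section, a depth range and segmented neighbours. In astrocyte-gate cells the median over the 21 gene pairs was 0.323 ± 0.0397 (SD over sections), and 18 pairs were positive on average. Over all 43956 pairs of panel genes in the same cells the median was -0.003, and 1.44% of pairs exceeded 0.3, against 11 of the 21. In this gate, which itself uses Aqp4, Aqp4 went most closely with Gfap (0.50, sections 0.41 to 0.54) and Rfx4 (0.47, sections 0.42 to 0.55), and Acsbg1 with Id2 (0.46, sections 0.38 to 0.49). In Ntsr2-gate cells Aqp4 with Gfap was 0.33, below Aqp4 with Id2 (0.53), Slc39a12 (0.48), Rfx4 (0.46) and Acsbg1 (0.37). In astrocyte-gate cells that passed no other gate the median was 0.192, so the size of the co-variation depended on which cells were kept.

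Gfap went with Aqp4 but little with several of the others. In astrocyte-gate cells it had mean correlations of -0.01 with Acsbg1, 0.03 with Gli3, 0.05 with Id2 and -0.29 with Slc39a12. In Ntsr2-gate cells, chosen without any of the 7 genes, the same pairs had -0.12 for Acsbg1, 0.02 for Gli3, 0.11 for Id2 and -0.08 for Slc39a12. Aqp4 and Slc39a12 correlated at -0.08 in astrocyte-gate cells, whose gate joins the pair by an or and so favours cells with one of them. The sign was not stable in this gate. The value was 0.02 by rank (Spearman) correlation, 0.17 in cells thinned to 200 transcripts and 0.03 in cells with fewer than 10 Htr2c transcripts. In Ntsr2-gate cells the same pair reached 0.48 (sections 0.41 to 0.51), and Slc39a12 with Acsbg1 reached 0.57 (sections 0.50 to 0.63), against 0.25 in astrocyte-gate cells.

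In Spag16-gate cells the pairs fell into opposite blocks. Aqp4 correlated with Rfx4 at 0.75 (sections 0.64 to 0.83) and with Gfap at 0.65 (sections 0.56 to 0.74). Slc39a12 correlated negatively with Aqp4 (-0.43, sections -0.54 to -0.29), Gfap (-0.38) and Rfx4 (-0.36), and positively with Id2 (0.22). Within Htr2c-low Spag16-gate cells alone, Aqp4 with Slc39a12 was 0.32 (sections 0.15 to 0.47) and Aqp4 with Rfx4 was 0.37. Within Htr2c-high cells alone, where Aqp4 and Rfx4 counts were low, Aqp4 with Slc39a12 was -0.10 (sections -0.22 to 0.03). Aqp4 with Rfx4 was 0.51 in those cells. The sign for Aqp4 with Slc39a12 thus differed between the whole gate and its Htr2c-low cells.

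In neurons the median correlation was 0.097 over the 21 pairs. These neurons leave out the neuron-gate cells with 3 or more transcripts of Aqp4 or Slc39a12 (38.8%), which narrows the range of both genes and touches 11 of the 21 pairs. Only Slc39a12 with Acsbg1 exceeded 0.3 (0.32, sections 0.31 to 0.33), and Aqp4 with Acsbg1 followed at 0.29. Over all cells with at least 10 transcripts, the panel gene most like a member was Ntsr2 for Acsbg1 (mean r 0.64), Aqp4 (0.55) and Gli3 (0.38). Slc39a12 was most like Aqp4 (0.54), Rfx4 most like Aqp4 (0.52) and Id2 most like Slc39a12 (0.46). Gfap was most like Igfbp5 (0.39), an insulin-like growth factor binding protein gene, then Aqp4 (0.37) and Gjc3 (0.33), a connexin gene of oligodendrocytes.

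**Figure D3:**
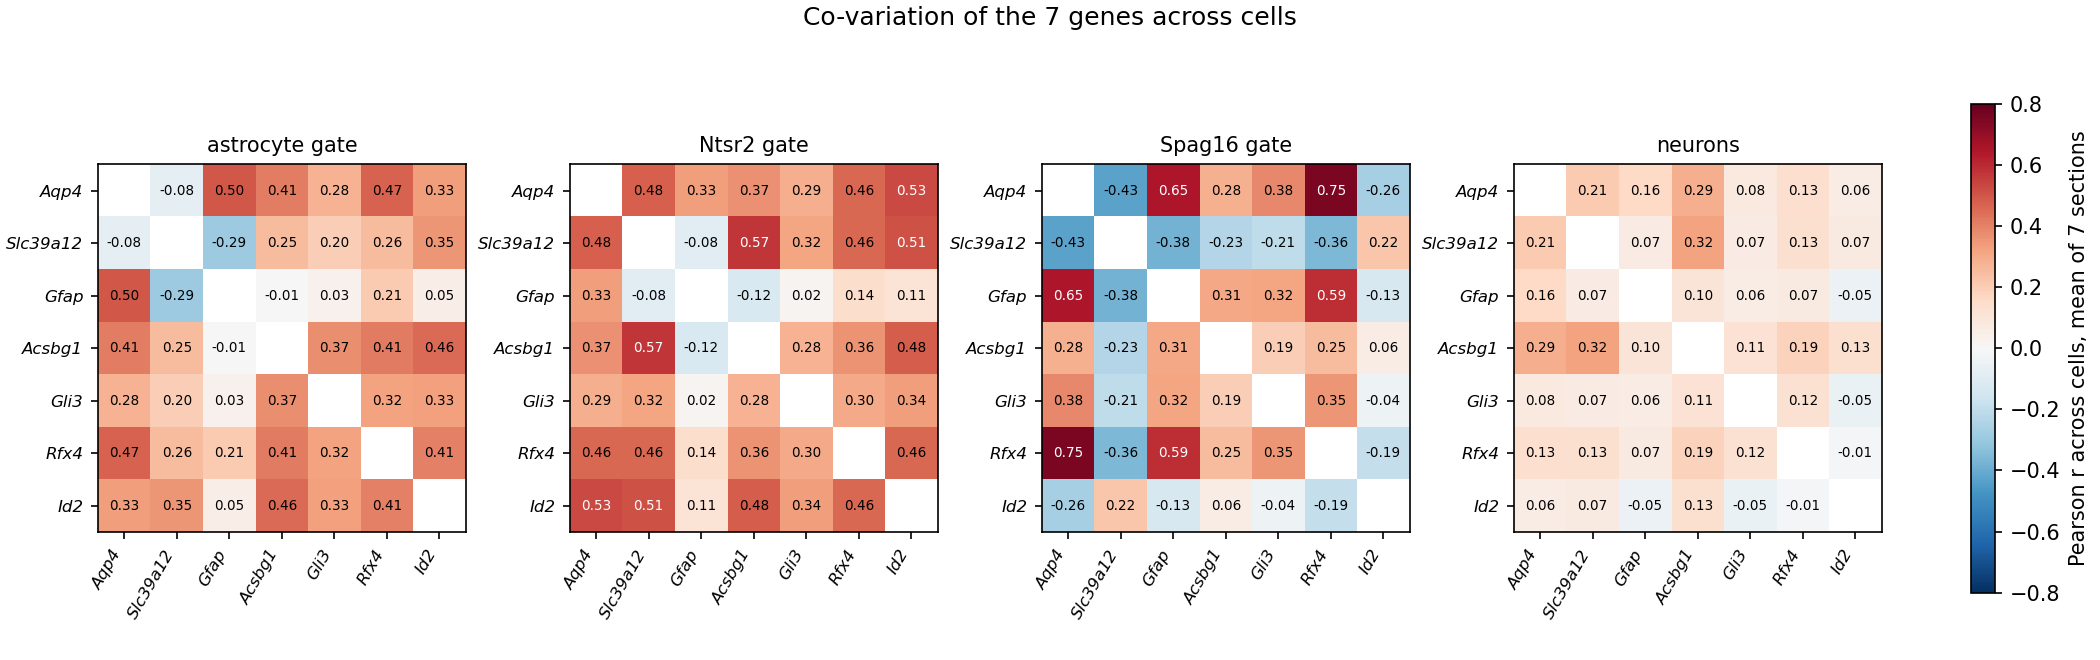
Mean Pearson correlation across cells (mean of 7 sections) for each pair of the 7 genes in astrocyte-gate cells, Ntsr2-gate cells, Spag16-gate cells and neurons. Slc39a12 turns negative against Aqp4, Gfap and Rfx4 in the Spag16 gate, and neurons, in which Aqp4 and Slc39a12 are capped by the gate, show weak values.

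Astrocyte-gate cells with high Gfap (at least 20 per 1000 transcripts, 13436 cells) were compared with those with low Gfap (under 5 per 1000, 18388 cells). Gfap-high cells made up 27.2% to 37.1% of the astrocyte gate by section. Aqp4 and Slc39a12 belong to the either-or gate behind both groups, so their levels are given with no test. Of the other 4 genes, 3 were called higher, 0 lower and 1 did not pass, where 78.1% of the panel was called, 37.4% higher and 40.7% lower. Aqp4 had 34.4, 37.5 and 40.3 transcripts per 1000 in Gfap-high cells, against 13.0, 14.4 and 17.1 in Gfap-low cells. Rfx4 had 9.13, 9.94 and 11.8 in Gfap-high cells, against 5.20, 5.77 and 7.51 in Gfap-low cells (log2 difference 0.89 ± 0.10, adjusted p = 2.4e-05). Rfx4 was higher in 7 of 7 sections, and the groups did not overlap in either gene.

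Slc39a12 had 14.2, 15.4 and 17.4 transcripts per 1000 in Gfap-high cells, against 23.4, 24.9 and 26.3 in Gfap-low cells. The section ranges did not overlap. A cell with few transcripts of one of the 2 gate genes had to pass on the other, and the part of the gate in this difference was not tested. Slc39a12 with Gfap had a mean correlation of -0.29 in the astrocyte gate and -0.08 in the Ntsr2 gate, which uses neither gene. The smaller rises of Id2 (0.32 ± 0.06) and Gli3 (0.23 ± 0.06) passed the test, but with cell number in place of library size they became -0.09 and -0.19, and without Htr2c-high cells Gli3 was 0.003. Acsbg1 did not pass (-0.04 ± 0.06, adjusted p = 0.54), was -0.28 without Htr2c-high cells, and was 0.59 with neuron-gate cells kept. Scaling by cell number shifted all genes by a median of -0.41 in this comparison, and 20.3% of calls were then higher, against 47.8%.

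Several markers moved with the division, and their part in these differences was not tested. Htr2c had a median of 1.12 per 1000 in Gfap-high cells and 14.3 in Gfap-low cells. Opalin had 12.8 in Gfap-high cells and 5.27 in Gfap-low cells. The sum of 7 endothelial genes had a median of 26.1 in Gfap-high cells (at most 30.4) and 36.0 in Gfap-low cells (at least 33.2). The sum of 4 mural genes had 7.67 in Gfap-high cells (5.48 to 10.6) and 4.53 in Gfap-low cells (3.87 to 5.02). Neither range overlapped between the groups. The sum of 4 fibroblast genes had 39.7 in Gfap-high cells (21.7 to 45.2) and 29.6 in Gfap-low cells (17.9 to 37.4), with overlapping ranges. Control probes gave 1.55 counts per cell in Gfap-high cells and 0.522 in Gfap-low cells. Gfap itself was also found outside the astrocyte gate, with 2.94 ± 0.432 transcripts per cell in oligodendrocyte-gate cells, where Aqp4 had 0.513 ± 0.0356. These cells were chosen outside the astrocyte gate, so each held fewer than 3 Aqp4 transcripts. Microglia-gate cells chosen the same way held 2.02 to 2.86 Gfap transcripts per cell over the sections. The part of transcripts from neighbouring cells was not tested. Control probes were highest in oligodendrocyte-gate cells (2.30 per cell), which is on average at most 0.383 per probe.

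**Figure D4:**
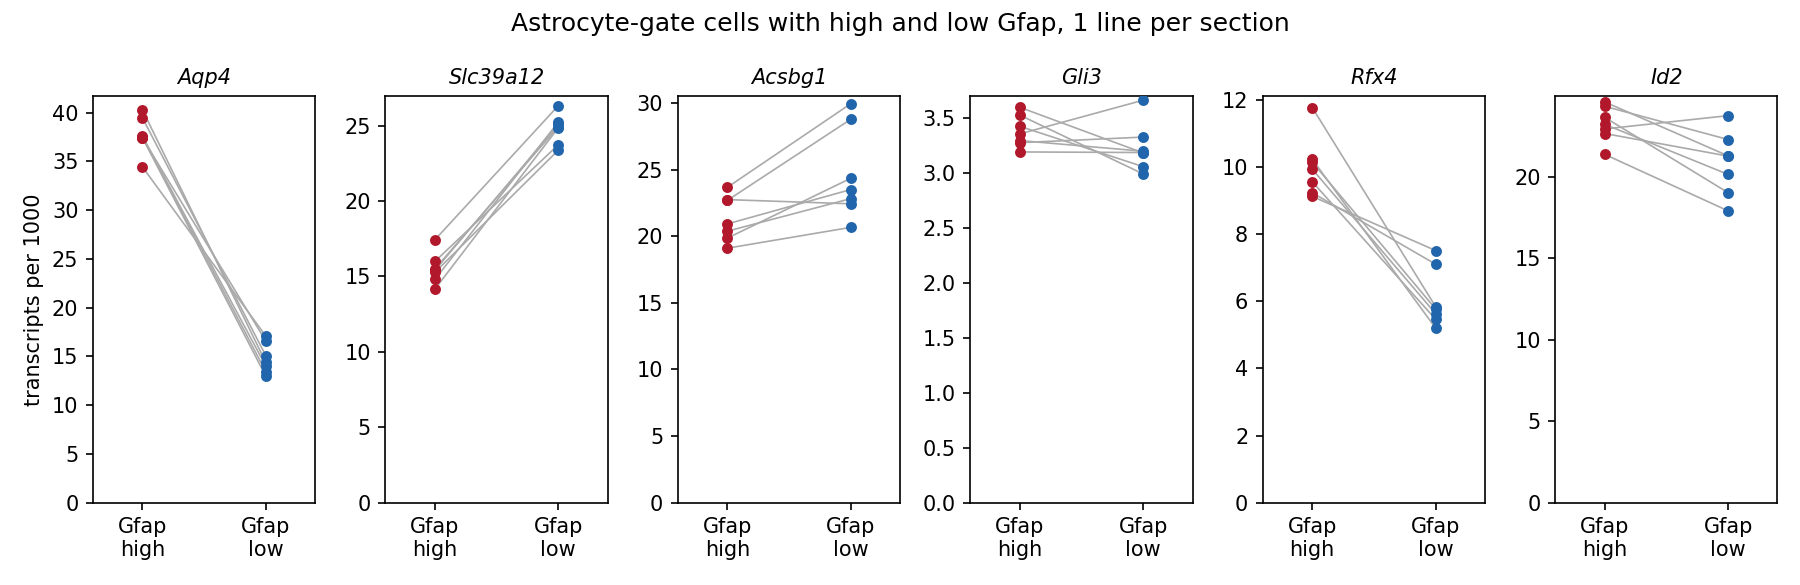
Transcripts per 1000 of 6 genes in Gfap-high (left) and Gfap-low (right) astrocyte-gate cells, with 1 line for each of 7 sections. Rfx4 is higher in Gfap-high cells in every section. Aqp4 lies higher and Slc39a12 lower there, 2 genes that the gate itself used.

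Position along the anterior-posterior axis was compared over sections in astrocyte-gate cells. With edgeR's quasi-likelihood test 0 of 297 genes were called (0% of the panel) between posterior and anterior, intermediate and anterior, or posterior and intermediate sections. At an unadjusted p under 0.05 there were 20, 1 and 7 genes, and DESeq2 called 3, 0 and 0. On simulated counts the posterior against anterior test recovered 95% of 20 genes with a 2-fold change. At 1.5-fold and at the smallest fold simulated only raised genes were scored, and 70% and 0% of them were recovered. Rises well under 1.5-fold were thus not detectable with this design, and the recovery of falls under 2-fold was not scored.

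Acsbg1 had the lowest unadjusted p of the 5 genes that the gate did not use, between posterior and anterior sections (0.034). It had 24.4 and 29.6 transcripts per 1000 in anterior replicates 1 and 2, and 24.5 and 28.3 in intermediate replicates 1 and 2. Posterior replicates 1, 3 and 4 had 23.3, 21.3 and 23.8. The posterior sections lay below the others, but the log2 difference from anterior sections (-0.28 ± 0.11) had an adjusted p of 0.60. Gfap had 19.4 and 15.8 in anterior, 24.2 and 17.1 in intermediate and 17.0, 26.2 and 21.7 in posterior replicates, so its positions overlapped (posterior minus anterior 0.26 ± 0.22, adjusted p = 0.82). The other 5 of the 7 genes had posterior minus anterior log2 differences of -0.20 to 0.02.

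In neurons 0 genes were called between posterior and anterior sections by edgeR, with 36 at an unadjusted p under 0.05 and 28 by DESeq2. Acsbg1 had 4.74, 4.70 and 4.88 transcripts per 1000 in posterior sections, against 5.54 and 5.46 in anterior sections (log2 difference -0.22 ± 0.06, adjusted p = 0.22). With the replicate number as a block, the log2 differences were -0.23 for Acsbg1 and -0.15 for Id2. Only posterior replicate 1 shared its number with sections of the other positions, so it alone set the posterior value in that fit. No count or p-value is therefore given for that fit, and the labels do not say that a number marks a shared animal. The test of whether position acted differently on astrocyte-gate cells and neurons called 0 genes by edgeR (10 at an unadjusted p under 0.05, and not run in DESeq2), and its largest value among the 5 genes was 0.35 ± 0.22 for Gfap.

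**Figure D5:**
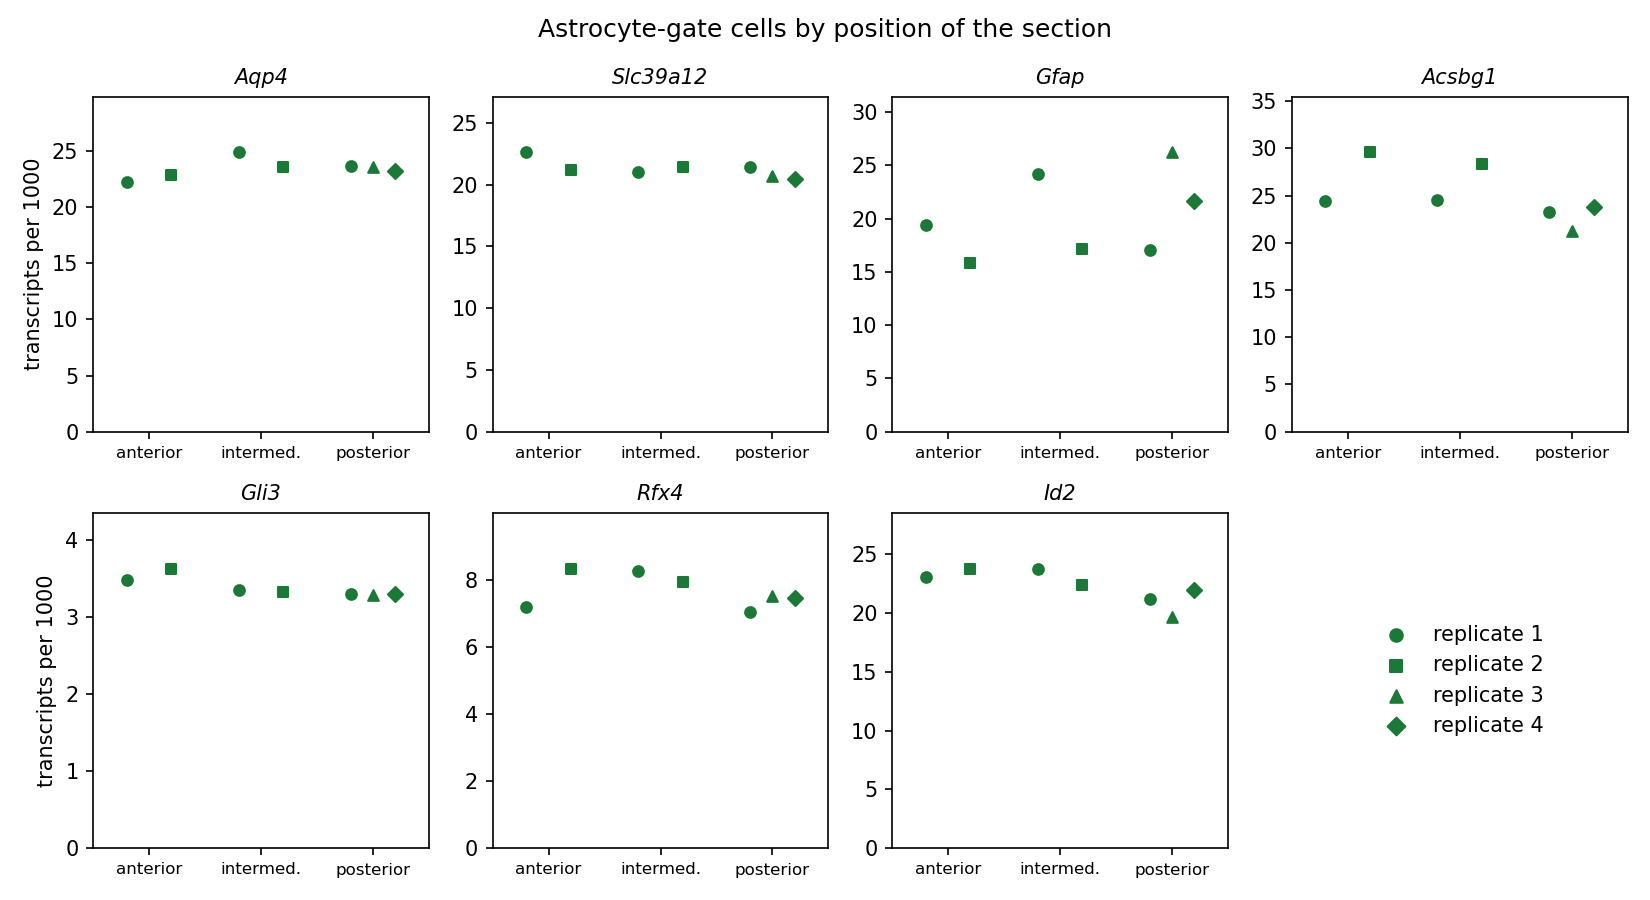
Transcripts per 1000 of each gene in astrocyte-gate cells of the 7 sections, by position, with the symbol giving the replicate number. Gfap values of the 3 positions overlap, and the 3 posterior sections have the lowest Acsbg1 values.

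Among neurons, Id2 was highest in Slc17a7 neurons. Neurons were divided by whichever of Slc17a7, Slc17a6 (vesicular glutamate transporter genes of mostly cortical and of mostly thalamic and other subcortical neurons) and Gad1 plus Gad2 (genes for GABA synthesis) was highest. Id2 had 8.84, 9.67 and 10.9 transcripts per 1000 in Slc17a7 neurons, against 3.11, 4.28 and 4.82 in Slc17a6 neurons (log2 difference 1.43 ± 0.07, adjusted p = 6.8e-08), where 85.2% of the panel was called, 44.4% higher. Gad neurons had 3.54, 3.95 and 4.46, a fall of 1.48 ± 0.03 on the log2 scale from Slc17a7 neurons (adjusted p = 9.5e-11). They did not pass against Slc17a6 neurons (0.04 ± 0.07, adjusted p = 0.61). The order of Id2 was thus Slc17a7 neurons first, and the other two classes did not differ beyond their spread.

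Gad neurons with at least 5 transcripts of Lamp5, a gene of a known Id2-positive group of cortical interneurons, were singled out after the data were seen. They held 3.53 ± 0.373 Id2 transcripts per cell and the other Gad neurons 1.36 ± 0.0383, with 6.24 ± 0.740 and 3.50 ± 0.270 per 1000. They also held more transcripts in all (median 546, against 368). The values of Id2 per 1000 did not overlap between sections of the 2 groups.

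Gli3, Rfx4 and Gfap were higher in Gad neurons. Gli3 had 0.752, 0.971 and 1.05 transcripts per 1000 in Gad neurons, against 0.348, 0.380 and 0.389 in Slc17a7 neurons and 0.320, 0.374 and 0.424 in Slc17a6 neurons. The log2 differences were 1.11 ± 0.07 from Slc17a7 neurons and 1.32 ± 0.11 from Slc17a6 neurons, with adjusted p of 1.3e-07 and 2.8e-06. Rfx4 rose by 0.80 ± 0.04 and 0.53 ± 0.06, and Gfap by 0.66 ± 0.08 and 0.30 ± 0.09, in the same order. Against Slc17a7 neurons 88.9% of the panel was called, 43.4% higher and 45.5% lower. Against Slc17a6 neurons it was 75.4%, with 37.4% higher and 38% lower. The 3 comparisons among neuron classes share their groups.

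These neurons hold at most 2 transcripts of Aqp4 and of Slc39a12 per cell by the way they were chosen, so both are given by level with no test. Aqp4 had medians of 1.48 transcripts per 1000 in Gad neurons, 1.24 in Slc17a7 neurons and 1.67 in Slc17a6 neurons, and Slc39a12 had 1.32 to 1.43, 1.22 to 1.37 and 1.56 to 1.77 over the sections in the same order. In Slc17a7 against Slc17a6 neurons, Rfx4 fell by 0.36 ± 0.07 and Gfap by 0.45 ± 0.13 on the log2 scale, where 40.7% of the panel was called lower. In Gad against Slc17a7 neurons Acsbg1 fell by 0.08 ± 0.03 (adjusted p = 0.030), and it was higher by 0.10 with library size in place of TMM, as it was per 1000 transcripts in 7 of 7 sections. Averaged over at least 6 control probes, a probe gave at most 0.101 counts per Gad neuron, 0.0438 per Slc17a7 neuron and 0.0811 per Slc17a6 neuron, against 0.383 Gli3 transcripts per Gad neuron, 0.178 per Slc17a7 neuron and 0.159 per Slc17a6 neuron. Control probes thus also ran highest in Gad neurons, and their part in the Gli3 difference was not tested.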

How the data were processed

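Per the labels' protocols, fresh-frozen hemisections were mounted on Xenium slides, fixed and permeabilised. The deposited gene table gives transcript counts as whole numbers for each cell, and the counts of a cell add up to its deposited total (100% of cells). The submitters' processing notes list Seurat without a version. Per the file headers the authors also deposited SCT totals, treated here as a score and not used. How cells were segmented and filtered is not stated.

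Cells with at least 10 transcripts were gated on counts. Counts were summed per section and class and tested with edgeR 4.0.16 (R 4.3.3): filterByExpr, TMM, quasi-likelihood F test with the section as a block for classes and no block for positions, Benjamini-Hochberg over the genes tested at 0.05. The SE is the absolute log2 difference divided by the square root of F. Aqp4 and Slc39a12 were not tested where the astrocyte gate took part in choosing the cells. Correlations used log(1 + count) after scaling to 300 transcripts. Python 3.11.15 and scipy 1.17.1 were used, with DESeq2 1.42.0 as an alternative. In simulated class comparisons the test recovered 100% of the changed genes scored at every fold simulated, with 4 false calls among 237. At 1.25-fold and 1.5-fold only raised genes were scored. The spread of these counts was set from 1 class entered as both classes, so the recovery says nothing of the power of the real comparisons.

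Members and lists were chosen with earlier results of these data known. The text names the 7 genes, the 3 panel genes most correlated with each, and 4 of 19 listed other astrocyte genes, which were those measured. Htr2c, Igf2, Cd24a, Trp73 and Lamp5 were singled out after their values were seen. The 7 symbols matched the RefSeq gene table, and 6 have promoter entries used here. No doublet caller was run.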

Additional observations from a re-analysis of the deposited data

Results flagged for a closer look

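Over 77 sets of 7 section values (7 genes in 11 classes, per 1000 transcripts), 6 had a lowest or highest section farther from the rest than Dixon's 95% critical value allows, and chance gives about 1 in 20. Of these, 4 were posterior replicate 3 in Htr2c-high Spag16-gate cells: Aqp4 3.88 (others 0.291 to 1.14), Gfap 2.17 (others 0.312 to 0.780), Acsbg1 0.518 (others 0.0849 to 0.261) and Rfx4 1.15 (others 0.124 to 0.450). That section held the fewest such cells, 165. The other two were Rfx4 in Gfap-high cells of intermediate replicate 1 (11.8, others 9.13 to 10.2) and Rfx4 in Slc17a6 neurons of anterior replicate 2 (1.04, others 0.856 to 0.914).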

How the results depend on the processing

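The rises of the 7 genes in Ntsr2-gate cells kept their direction and call under every alternative run. Depth limits Gli3 most, and no cell annotation limits the purity of each class. Where values turned, the cause was not tested unless the alternative names the cells left out. In Spag16-gate against Ntsr2-gate cells, without Htr2c-high cells (Spag16-gate cells under 3 Htr2c transcripts, chosen after seeing the data) Aqp4 was 0.59, Slc39a12 -0.35, Gfap 0.16 and Rfx4 0.63. With Spag16 of at least 10, Aqp4 was 0.79, Gfap 0.083 and Rfx4 0.75. Without cells of another gate, Slc39a12 was -1.02 and Gfap 0.054. The fibroblast gate, a sum of at least 5, counts Igf2, so this alternative also left out Htr2c-high cells. That sum had a section median of 40.2 per cell in Htr2c-high Spag16-gate cells, against 3.15 in Htr2c-low ones. Against the astrocyte gate, Rfx4 was 0.21 with DESeq2, 0.88 with Spag16 of at least 10 and 0.83 without Htr2c-high cells, where Gfap was 0.10. With neuron-gate cells kept in the astrocyte gate, Gfap was 1.05, Rfx4 1.14 and Id2 0.37. In Gfap-high against Gfap-low cells, Acsbg1 was 0.59 with neuron-gate cells kept, Gli3 -0.19 and Id2 -0.093 by cell number, and Gli3 -0.13 without cells of another gate. In Gad against Slc17a7 neurons, Acsbg1 was 0.098 by library size.

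The count of called genes kept within 1.5 times its value in every class comparison. Leaving out 1 section gave 278 to 285 for Ntsr2-gate cells against neurons, 276 to 281 for the astrocyte gate against neurons, 256 to 265 and 258 to 265 for the Spag16 gate against the Ntsr2 and astrocyte gates, 223 to 233 for the Gfap division, and 245 to 253, 257 to 260 and 213 to 221 for Slc17a7 against Slc17a6, Gad against Slc17a7 and Gad against Slc17a6 neurons. Posterior against anterior sections gave 3 calls with DESeq2 in astrocyte-gate cells, and 28 with DESeq2 in neurons. In neurons, leaving out posterior replicate 3 or posterior replicate 4 gave 1 call each (range 0 to 1). With the replicate block 69 genes were called in neurons and 0 in astrocyte-gate cells at each of the 3 position contrasts. Replicates 1 of anterior and intermediate sections deviated together (r = 0.80), and those of anterior and posterior sections at 0.25, but the labels do not pair them. Slide as a block gave 0 calls between intermediate and anterior sections. For posterior sections no count is given, since posterior replicate 1 alone set the posterior value there too. The median pair correlation was 0.192 in astrocyte-gate cells of no other gate and 0.401 in all cells of the rule, and without 1 section it ran from 0.315 to 0.335. The share of cells in the astrocyte gate was 12.9% in cells thinned to 200 transcripts, against 10.8%.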
